A study of Mus musculus with 4 samples.

Results

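The SMAD target and feedback genes examined here are Id1, Id2, Id3, Id4, Smad6, Smad7, Skil, Bambi, Pmepa1 and Tgfbi, 10 genes chosen by name as transcripts that TGF-beta or BMP signalling is known to induce. All probes annotated with one of these symbols were taken. They numbered 13 of 25697 probes and stood for 9 of the 16593 genes named on the array, while Smad7 was not analysed here because no probe carried its symbol. Expression was measured on Illumina bead arrays, which read hybridised, biotin-labelled copies of total RNA as the brightness of each probe. The cells were fibroblasts from mouse embryos that lack p19ARF (p19ARF-/-), a protein that restrains MDM2 and so stabilises p53. They had been stably transduced with a control vector (2 arrays) or with wild-type NSD2, a histone methyltransferase that dimethylates histone H3 at lysine 36 (2 arrays). Both groups therefore shared the p19ARF deletion, grew in serum-containing medium and received no further treatment, and no TGF-beta or BMP ligand was added. The design text speaks of tests in triplicate, and the files used hold 2 arrays of each group. The labels do not say whether the replicates were separate cultures, so that p-values measure only the spread between these arrays, which may be technical. The vector's promoter and the number of clones are not given in the sources used here. No probe carried the symbol Nsd2 or Whsc1, and the level of the transduced gene was not analysed here.

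TGF-beta and activin receptors phosphorylate SMAD2 and SMAD3, and BMP receptors phosphorylate SMAD1, SMAD5 and SMAD9. The phosphorylated proteins bind SMAD4, enter the nucleus and switch on target genes, several of which encode brakes on the same pathway. In fibroblasts TGF-beta is known for driving matrix production and BMPs for inducing the ID genes, so that the level of these transcripts is often read as a record of pathway activity.

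The median raw signal of an array lay between 164 and 204, and 42.3% to 45.9% of its probes exceeded background, a threshold estimated from the lower side of the array's own signal distribution (178 to 219 signal units). Of the fibroblast markers measured, 8 of 9 were above background on all 4 arrays, against 1 of 8 haematopoietic markers (Cd14), 0 of 7 endothelial markers, 1 of 6 muscle markers and 3 of 6 epithelial markers. The labels also name blood as the tissue and give an age that does not describe embryonic cells. Of the 8 haematopoietic genes, Hba-a1, Spi1, Itgam and Cd79a were below background on all 4 arrays, and Cd3e, Lyz2 and Ptprc were above it on some arrays only. Of the 6 epithelial genes, Cdh1, Krt8, Krt14 and Krt18 were above background on at least 1 array, and Cldn4 and Krt5 on none. The summed signal of the epithelial genes was 19433 to 36293 per array, against 40761 to 58176 for the fibroblast genes. The haematopoietic, endothelial and muscle sums lay between 976 and 1597. The 75th percentile of the signal was 357 and 345 on the arrays of replicate number 1 and 490 and 491 on those of number 2. The brightness of the upper part of the signal range thus went with the replicate number. The medians did not separate in this way, at 173 (control) and 164 (NSD2) on number 1 and 204 and 172 on number 2.

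With NSD2, 0 of the 9 measured SMAD target and feedback genes changed (limma, Benjamini-Hochberg adjusted p under 0.05 over all probes), against 4 of 16593 genes (0.0241%) that passed in either direction. At an unadjusted p under 0.05 the members' count was also 0, against 3.91% of all genes. The smallest unadjusted limma p among the members was 0.093, for Id3, and the adjusted p was 0.9996 for each of the 13 probes. Id1 and Skil had higher means with NSD2, by 0.33 and 0.30 on the log2 scale, and Id3 and Tgfbi had lower means, by -0.43 and -0.31. All values are log2 intensities after background correction and quantile normalization unless they are called signals, and differences are NSD2 minus control vector. RNA was taken from whole cultures, so fewer cells expressing a gene and less RNA per cell cannot be told apart. With 2 arrays against 2, an exact permutation test of 1 gene cannot give a two-sided p below 0.333.

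**Figure D1:**
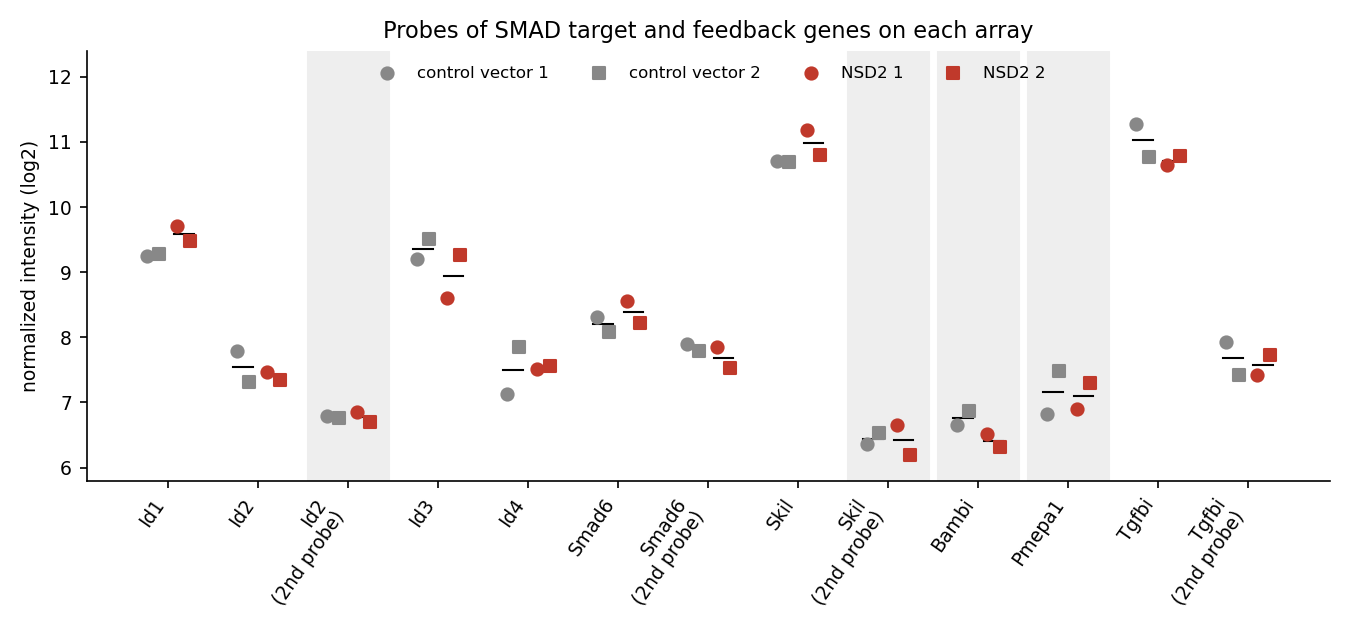
Normalized log2 intensity (y axis) of the 13 probes of the 9 measured genes (x axis) on each array: grey for control vector, red for NSD2, circles for replicate 1, squares for replicate 2, short lines for group means. Grey columns mark probes not above background on all 4 arrays. The groups separate for Id1, where both NSD2 arrays (9.71 and 9.48) lie above both control arrays (9.24 and 9.29), and for the brighter Skil probe. They also separate for Bambi, lower with NSD2 but below background on all arrays, and they overlap for Id3 and Tgfbi.

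The ID genes encode helix-loop-helix proteins without a DNA-binding region, which pair with E proteins and keep them from binding DNA. They are among the best-known direct targets of BMP-activated SMAD1 and SMAD5. All 4 were measured, and their differences did not share 1 direction.

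Id1 stood at 9.24 and 9.29 on the control arrays and at 9.71 and 9.48 on the NSD2 arrays. Both NSD2 arrays were higher than both control arrays, and the control arrays lay close together. The group means were 9.27 ± 0.03 and 9.59 ± 0.16 (SD, n = 2 per group), a difference of 0.33 ± 0.20 (SE of the limma fit, adjusted p = 0.9996) with a 95% interval of -0.11 to 0.76, or 0.929- to 1.70-fold. The raw signals behind these values were 563 and 827 in control cells and 723 and 960 with NSD2, and these overlapped between the groups before normalization. In the authors' processed values, Id1 read 524 and 555 in control cells and 748 and 634 with NSD2, again without overlap.

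Id3 stood at 9.21 and 9.51 on the control arrays and at 8.60 and 9.26 on the NSD2 arrays. The array NSD2 1 was low, while NSD2 2 lay between the control arrays, so the groups overlapped. The group means were 9.36 ± 0.21 and 8.93 ± 0.47 (SD, n = 2 per group), a difference of -0.43 ± 0.24 (SE, limma adjusted p = 0.9996). Its 95% interval ran from -0.93 to 0.08, which leaves room for a level up to 1.91-fold lower with NSD2. Without NSD2 1 the difference was -0.10 and without NSD2 2 it was -0.75, so that 1 array set most of its size. The authors' processed values were 510 and 661 in control cells and 312 and 538 with NSD2, in the same order.

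Id2 stood at 7.78 and 7.32 in control cells and at 7.46 and 7.35 with NSD2, and the control arrays enclosed both NSD2 arrays. The difference was -0.15 ± 0.22 (SE), with a 95% interval of -0.61 to 0.32. Its signals, 255 and 260 in control cells and 211 and 239 with NSD2, were not far above background. The other Id2 probe was below background on all 4 arrays and differed by -0.0032.

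Id4 stood at 7.13 and 7.86 in control cells and at 7.52 and 7.56 with NSD2. The control arrays were far apart and the NSD2 arrays fell between them. The means were 7.49 ± 0.51 and 7.54 ± 0.03 (SD, n = 2 per group), a difference of 0.049 ± 0.24 (SE) with a 95% interval of -0.46 to 0.56. The sign of the Id2 and Id4 differences depended on control vector 1, without which they were 0.091 and -0.33.

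SMAD proteins bind short DNA elements, of which CAGAC is the classical SMAD-binding element and GGCGCC a GC-rich element described in BMP-responsive promoters. The promoters of Id2, Id3 and Id4 are printed to show which of these letters lie close to the start of the BMP targets described above. The sequences are those of RefSeq (GRCm38.p6) and run 5′ to 3′ on the strand of the gene, from 250 bases before to 50 bases after its start, with matches to CAGAC (read on either strand, so also as GTCTG) or GGCGCC (the same on both strands) in capitals. Windows were printed or counted for 5 of the members, Id2, Id3, Id4, Smad6 and Tgfbi. The promoters of the other members, Id1 among them, were not analysed here.
Id2, chr12:25096043-25096342, minus strand: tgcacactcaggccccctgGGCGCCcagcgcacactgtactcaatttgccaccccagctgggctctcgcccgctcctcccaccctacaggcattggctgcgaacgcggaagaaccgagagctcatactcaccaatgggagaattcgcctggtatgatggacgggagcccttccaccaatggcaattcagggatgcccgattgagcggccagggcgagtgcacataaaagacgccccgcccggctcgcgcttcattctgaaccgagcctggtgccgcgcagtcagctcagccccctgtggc
Id3, chr4:136143572-136143871, plus strand: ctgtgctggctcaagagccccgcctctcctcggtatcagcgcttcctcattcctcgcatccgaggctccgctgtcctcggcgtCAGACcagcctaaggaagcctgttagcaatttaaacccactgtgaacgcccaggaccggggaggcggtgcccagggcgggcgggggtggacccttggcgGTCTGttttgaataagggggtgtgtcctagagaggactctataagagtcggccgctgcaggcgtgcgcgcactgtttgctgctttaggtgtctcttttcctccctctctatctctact
Id4, chr13:48260866-48261165, plus strand: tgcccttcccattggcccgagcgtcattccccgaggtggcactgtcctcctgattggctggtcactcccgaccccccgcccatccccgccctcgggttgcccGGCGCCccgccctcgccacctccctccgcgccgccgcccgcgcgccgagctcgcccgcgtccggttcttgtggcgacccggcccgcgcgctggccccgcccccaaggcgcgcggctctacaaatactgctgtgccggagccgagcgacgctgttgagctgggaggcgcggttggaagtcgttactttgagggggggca
The Id3 window held 2 matches to CAGAC, which begin 167 and 68 bases before the start, and 0 to GGCGCC. The Id2 and Id4 windows held 1 GGCGCC each, beginning 231 and 148 bases before the start, and 0 CAGAC. The Smad6 window held 0 matches to either motif. Of all 32851 promoter windows of this length, 49.6% held CAGAC and 11.9% held GGCGCC, so a match to CAGAC is common. The ID windows were rich in G and C, with 63.3% for Id2, 60.0% for Id3 and 73.3% for Id4 against a median of 52.7% over all windows. A match is a run of letters, not a site shown to be bound, and no binding was measured.

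Smad6, Smad7, Skil, Bambi and Pmepa1 encode brakes on the pathway. SMAD6 is an inhibitory SMAD that acts mainly on BMP receptors and on SMAD1, and SKIL (SnoN) is a nuclear corepressor that binds SMAD2, SMAD3 and SMAD4. BAMBI is a receptor-like membrane protein without a kinase domain, and PMEPA1 is a membrane protein that holds SMAD2 and SMAD3 away from the receptor.

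The brighter Smad6 probe stood at 8.31 and 8.08 in control cells and at 8.56 and 8.22 with NSD2. The lower NSD2 array lay between the control arrays, and the difference was 0.19 ± 0.21 (SE, 95% interval -0.26 to 0.65). The other Smad6 probe, also above background on all 4 arrays, stood at 7.90 and 7.79 in control cells and at 7.85 and 7.53 with NSD2. It differed by -0.15 ± 0.21 (95% interval -0.60 to 0.29), so the Smad6 probes disagreed in sign, and the mean of the probes differed by 0.019.

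The brighter Skil probe stood at 10.70 and 10.69 in control cells and at 11.18 and 10.80 with NSD2. The control arrays were nearly equal, and both NSD2 arrays lay above them. The means were 10.69 ± 0.01 and 10.99 ± 0.27 (SD, n = 2 per group), a difference of 0.30 ± 0.21 (SE, limma adjusted p = 0.9996), with a 95% interval of -0.15 to 0.75, or 0.899- to 1.68-fold. The raw signals were 1449 and 2068 in control cells and 1920 and 2292 with NSD2, and the authors' processed values were 1601 and 1576 against 2247 and 1635. Without NSD2 1 the difference was 0.097, so that array carried most of it. The other Skil probe, annotated to another transcript, was below background on all 4 arrays and differed by -0.024.

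Bambi was below background on every array, with signals of 162 and 208 in control cells and 144 and 137 with NSD2 against thresholds of 185, 219, 178 and 182. Its level was therefore not measurable here and no fold is given, although its normalized values (6.66 and 6.87, then 6.51 and 6.31) did not overlap. Pmepa1 was above background on 2 arrays, control vector 2 and NSD2 2, with signals of 284 and 230, and not on the arrays of number 1, with 173 and 169. Its normalized values were 6.83 and 7.49 in control cells and 6.90 and 7.29 with NSD2, so the arrays of number 2 were the high ones in both groups. The difference was -0.060 ± 0.24 (SE, 95% interval -0.57 to 0.46), and it turned positive without control vector 2 (0.26) or without NSD2 1 (0.15).

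Tgfbi encodes a secreted, TGF-beta-induced matrix protein that binds collagens and integrins, and is the member read as an output of TGF-beta rather than as a brake or a BMP target. The brighter Tgfbi probe stood at 11.28 and 10.77 in control cells and at 10.64 and 10.79 with NSD2. The array control vector 1 was high and the other 3 arrays lay close together, so the groups overlapped. The means were 11.03 ± 0.36 and 10.71 ± 0.10 (SD, n = 2 per group), a difference of -0.31 ± 0.22 (SE, limma adjusted p = 0.9996) with a 95% interval of -0.78 to 0.16. Without control vector 1 the difference was -0.061. The other Tgfbi probe, above background on all 4 arrays, stood at 7.93 and 7.42 in control cells and at 7.43 and 7.72 with NSD2 and differed by -0.10 ± 0.23 (SE). On both probes control vector 1 was the highest array after normalization, while NSD2 2 was the highest in raw signal. The raw signals of the brighter probe were 2111 and 2187 in control cells and 1327 and 2270 with NSD2. Those of the other probe were 274 and 274, then 208 and 304, not far above background. The promoter window is printed for comparison with those of the ID genes, with the same motifs in capitals.
Tgfbi, chr13:56609336-56609635, plus strand: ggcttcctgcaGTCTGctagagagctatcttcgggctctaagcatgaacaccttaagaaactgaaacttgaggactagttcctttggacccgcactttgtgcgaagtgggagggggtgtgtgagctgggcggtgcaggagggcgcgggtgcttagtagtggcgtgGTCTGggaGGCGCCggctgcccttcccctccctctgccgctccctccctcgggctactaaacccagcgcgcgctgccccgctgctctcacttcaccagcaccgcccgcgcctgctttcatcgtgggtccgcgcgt
It held 2 CAGAC matches, both read as GTCTG, which begin 239 and 85 bases before the start, and 1 GGCGCC beginning 77 bases before it.

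**Figure D2:**
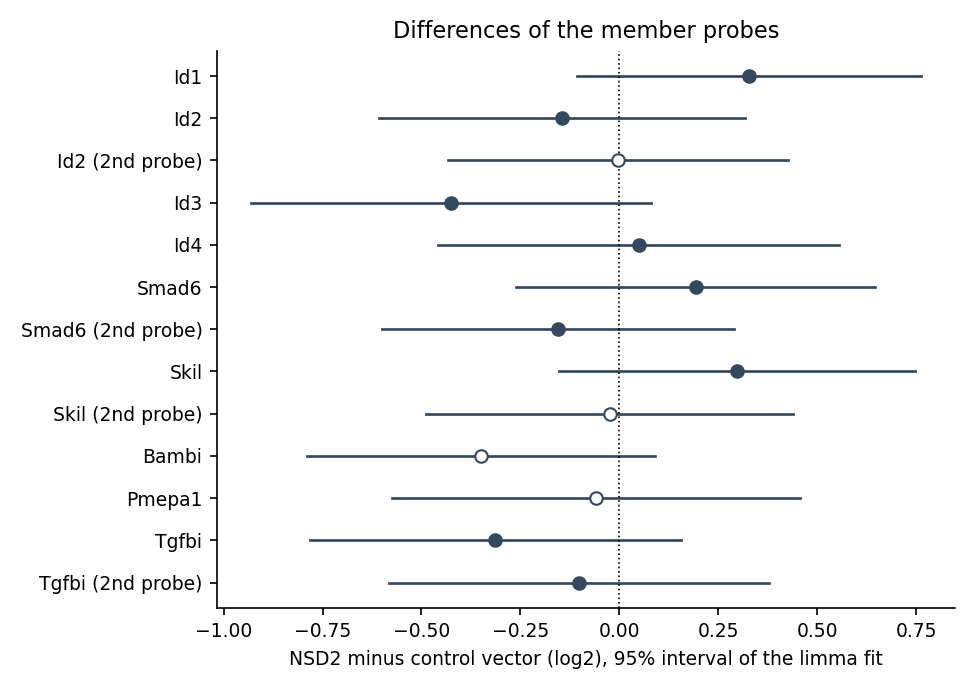
Difference between NSD2 and control vector on the log2 scale (x axis) for each member probe (y axis), with its 95% interval from the limma fit. Filled points are probes above background on all 4 arrays. Each of the 13 intervals includes 0, with point values between -0.43 for Id3 and 0.33 for Id1.

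Of the 9 measured members, 7 were above background on all 4 arrays, 1 on some (Pmepa1) and 1 on none (Bambi). Among these 7, 4 had higher and 3 had lower means with NSD2, against 49.2% higher means over the 6902 genes above background on all arrays. The groups did not overlap for 2 of the 7, Id1 and Skil, both higher, against 30.7% of those 6902 genes in either direction and 15.1% in that direction. For 0 of the 7 both NSD2 arrays were lower, against 15.6%. The median difference of the 7 was 0.049, against -0.0037 over the 6902 genes. Their median size of difference, regardless of sign, was 0.30, against 0.13. By size, Id3 stood at percentile 95.8 of the 6902 genes, Id1 at 90.0, Tgfbi at 89.1, Skil at 87.3, Smad6 at 69.3, Id2 at 56.1 and Id4 at 20.3. These are descriptions of genes chosen with earlier results known, and no member passed the test.

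**Figure D3:**
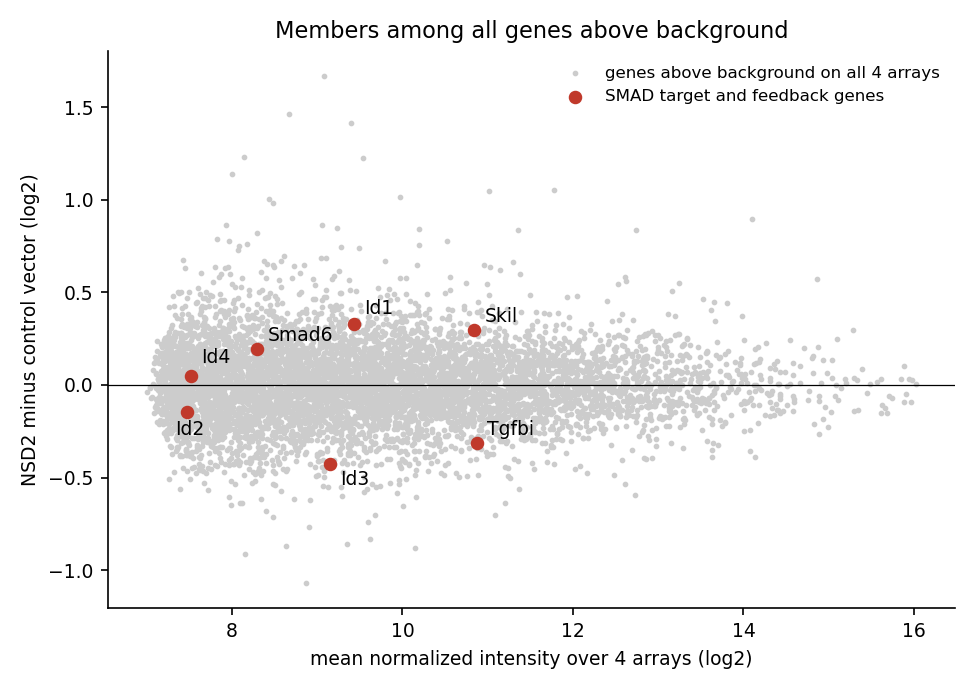
Difference between NSD2 and control vector (y axis, log2) against mean normalized intensity over the 4 arrays (x axis, log2) for the 6902 genes above background on all arrays (grey), with the 7 members among them in red. The members lie inside the cloud of all genes, with Id1 and Skil above 0 and Id3 and Tgfbi below it.

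The other genes of the pathway were read from the same fit to place these members among ligands, receptors and SMADs. Of 81 measured genes in 8 lists, each read on its brightest probe, 0 rose and 0 fell over all genes tested (limma), against 0.0241% of all genes called. An unadjusted limma p under 0.05 was found for 8 of them, against 3.91% of all genes. In the list of ligand genes, which also holds the protease gene Bmp1, 1 of the 7 above background on all arrays had a higher mean, and 2 of 7 with median scaling. Bmp4, a BMP ligand known to induce the ID genes, stood at 12.36 and 12.15 in control cells and at 12.94 and 12.67 with NSD2. Both NSD2 arrays were higher, by 0.54 ± 0.21 (SE, limma adjusted p = 0.9996) between the means. The 3 TGF-beta ligand genes differed by -0.094 ± 0.20 (Tgfb1), -0.079 ± 0.23 (Tgfb2) and -0.028 ± 0.24 (Tgfb3). Of these, Tgfb1 varied least between arrays, from 7.84 to 7.96.

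Of the 7 receptor genes above background on all arrays, 5 had higher means, and 6 with median scaling. Tgfbr1, the type I receptor of TGF-beta, differed by 0.32 ± 0.21, with 11.75 and 11.52 in control cells and 12.01 and 11.91 with NSD2, and the groups did not overlap. Its other probe above background differed by 0.15. Tgfbr2, the type II receptor, differed by 0.14 ± 0.22, and its other probe by -0.15. Bmpr1a, a type I BMP receptor gene, differed by 0.39 ± 0.21, without overlap, and its other probe also by 0.39. Bmpr2 was above background on 1 array.

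Of the 6 measured genes of the signal-carrying SMADs, Smad9 was below background on all 4 arrays. The 5 above background on all arrays had lower means in 5 of 5, but in 3 of 5 with median scaling, and their median difference was -0.085. Smad4, the shared partner, stood at 13.09 and 13.08 in control cells and at 12.78 and 12.93 with NSD2 and differed by -0.23 ± 0.20. Smad1 differed by -0.27 ± 0.22, while its other probes differed by 0.17 (above background on all 4 arrays) and 0.026 (on 1 array). Smad5 differed by -0.085 ± 0.23, with -0.013 for another probe above background on all 4 arrays and -0.34 for one above it on 3. The TGF-beta-side genes Smad2 (-0.034 ± 0.20) and Smad3 (-0.041 ± 0.20) had the smallest differences of the 5. Among the 6 regulators above background on all arrays, 3 had higher means. Smurf2, a ubiquitin ligase that targets receptors and SMADs, differed by -0.21 ± 0.21, and Smurf1 by -0.46 ± 0.23. Smurf1 was near background, above it on the 2 control arrays (signals of 228 and 219) and on neither NSD2 array (172 and 157).

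Of the 6 extracellular antagonist genes above background on all arrays, 5 had higher means, under every scaling tried. Grem1, which binds BMP2 and BMP4, stood at 9.47 and 10.06 in control cells and at 10.39 and 10.83 with NSD2, and differed by 0.84 ± 0.24 (limma adjusted p = 0.9996). Both NSD2 arrays were higher than both control arrays. The ligand gene Bmp4 and the antagonist gene Grem1 both had higher means, while the BMP targets Id1 and Id3 differed in opposite directions, and without a replicate term none of these passed over all genes.

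Of 16 measured other TGF-beta-responsive genes, which share their inducer with Tgfbi, 14 were above background on all 4 arrays. Of these 14, 7 had higher and 7 had lower means (4 and 10 with the authors' processed values). On the brightest probes of these 14 genes the differences ran from -0.29 to 0.33. Some other probes above background on all 4 arrays lay outside this range. Col3a1 differed by 0.72 ± 0.25 on its other probe, against 0.046 ± 0.22 on the brightest. Acta2 differed by -0.35 ± 0.23 on 1 of its other probes, against 0.032 ± 0.20 on the brightest and -0.074 and 0.15 on the rest. Ccn2, a matricellular gene widely used as a TGF-beta readout, stood at 15.07 and 15.12 in control cells and at 15.09 and 14.81 with NSD2 (-0.15 ± 0.21). Col1a1 differed by 0.33 ± 0.23, the contractile gene Tagln by 0.25 ± 0.20 and Thbs1, whose product activates latent TGF-beta, by -0.035 ± 0.20. Of the other BMP-responsive genes, 4 of 13 were above background on all arrays, 2 with higher means. Of the E proteins, the partners of ID proteins, Tcf4 stood at 11.22 and 12.02 in control cells and at 11.03 and 11.85 with NSD2 (-0.18 ± 0.28). In both groups the array of number 2 was the higher one. Tcf12 differed by 0.0072 ± 0.22. Fn1, Ski and Tcf3 were not analysed here because no probe carried their symbol.

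**Figure D4:**
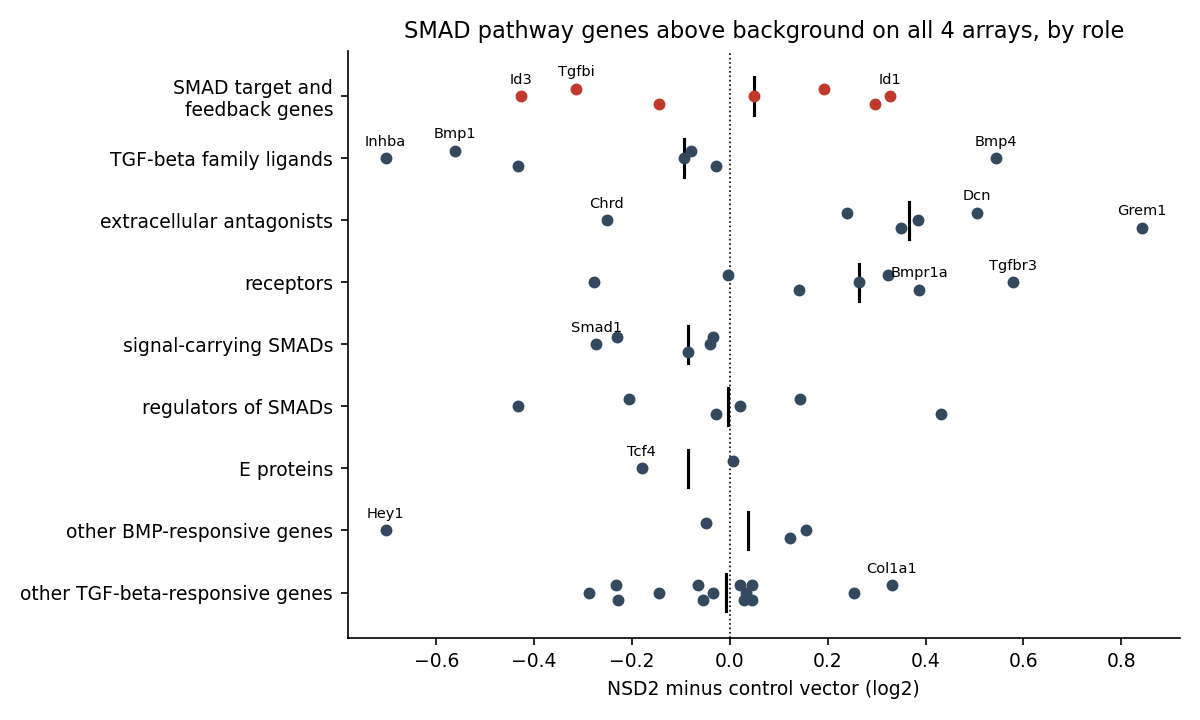
Difference between NSD2 and control vector (x axis, log2) of each gene above background on all 4 arrays, by its role (y axis), with the SMAD target and feedback genes in red and the median of each list as a vertical line. The medians run from -0.094 for the ligands to 0.37 for the extracellular antagonists, and that of the SMAD target and feedback genes is 0.049. Some genes are labelled for orientation.

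On the brightest probe of each gene, 8 pathway genes had an unadjusted limma p under 0.05, and other probes were not counted. These were Bmp4, Grem1, Dcn, Inhba, Inhbb, Bmp1, Nedd4l and Hey1. Of them, Dcn, Inhba, Inhbb, Bmp1, Nedd4l and Hey1 are named here after their values were seen. Dcn, a matrix proteoglycan gene whose product binds TGF-beta, differed by 0.51 ± 0.20. The activin subunit genes Inhba and Inhbb differed by -0.70 ± 0.21 and -0.43 ± 0.20, and Bmp1, which encodes a procollagen protease and not a BMP ligand, by -0.56 ± 0.20. Other Bmp1 probes above background on all 4 arrays differed by -0.038 and -0.36, and one above it on 1 array by 0.31. The ubiquitin ligase gene Nedd4l differed by -0.43 ± 0.20. Hey1, a Notch and BMP target, differed by -0.70 ± 0.24, with 10.20 and 9.85 in control cells and 9.62 and 9.02 with NSD2. The adjusted p of each of the 8 was 0.9996.

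**Figure D5:**
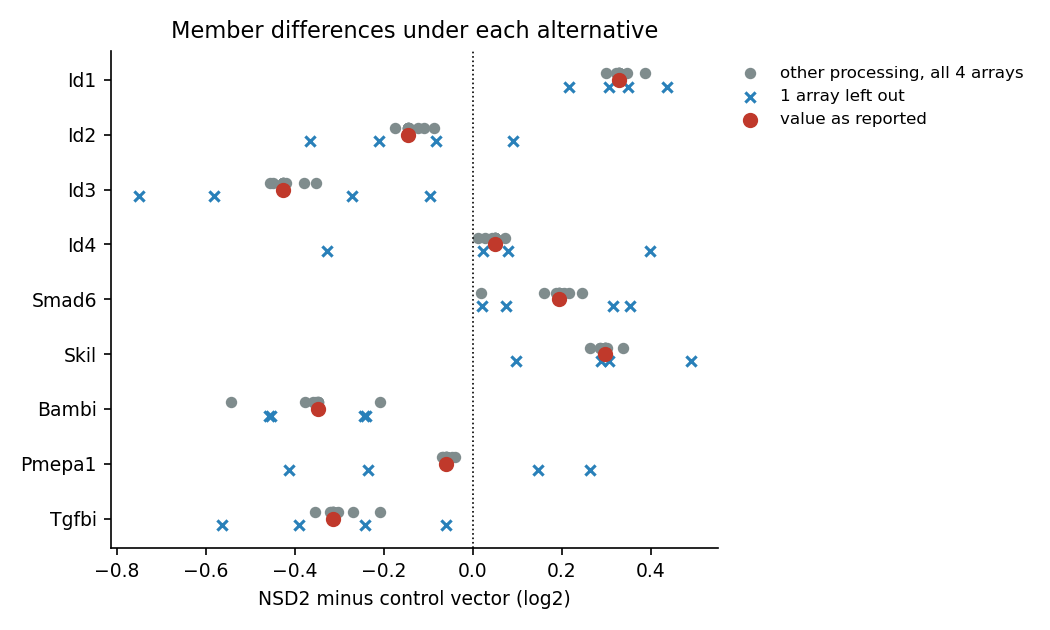
Difference between NSD2 and control vector (x axis, log2) of each measured member (y axis) as reported (red), under other processing of all 4 arrays (grey circles) and with 1 array left out (blue crosses). The values of Id2, Id4 and Pmepa1 cross 0 when an array is left out, and those of Id3 spread from -0.75 to -0.10.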

How the data were processed

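Per the file headers, the deposited table of signals holds the average bead intensity of each probe on a linear scale, neither normalized nor background-subtracted and without detection p-values. The authors' deposited processed values are also linear intensities, made by steps that the sources used here do not give; they kept the order of probes within each array (Spearman correlation 1 across probes, which are not independent replicates), had medians between 42.3 and 48.7 per array, and are neither log values nor centred per gene. RNA was amplified and biotin-labelled, per the labels' protocols. Gene symbols came from the platform annotation, which gave 1 symbol to 23978 probes, several to 0 and none to 1719.

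Signals were corrected with normexp (offset 50), quantile normalized over all 25697 probes and compared with lmFit and eBayes in limma 3.58.1 (R 4.3.3), two-sided and without covariates, with Benjamini-Hochberg adjustment over all probes at 0.05. The offset understates differences of dim probes. A gene is given by its brightest probe. Background on each array is the upper 5% point of the lower side of the log2 signal distribution mirrored about its mode. Precision is limited by the number of arrays, 2 per group.

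All 10 members are named, each by its brightest probe with its other probes. Pathway genes were named from a list set by role, except 6 named for an unadjusted p under 0.05. The members, lists and tests were chosen with earlier results of these data known. On simulated data the fit was checked only for returning the size of the differences put in, not for how often it finds them. Alternatives changed the background correction, offset, normalization, source of values, background filter, moderation, replicate term, probe choice and arrays. No list test and no adjustment over a list alone was used. The table of sequences was used for promoters only, and no genome build is named by the array files.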

Additional observations from a re-analysis of the deposited data

How the results depend on the processing

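Under each of 14 alternatives 0 of the members tested passed at an adjusted p under 0.05, and the smallest adjusted p of a member was 0.558 (Id3). No change of scaling or background correction turned the direction of a member. Leaving out control vector 1 turned Id2 (0.091) and Id4 (-0.33), and Pmepa1 turned without control vector 2 (0.26) and without NSD2 1 (0.15), the ranges without 1 array being -0.37 to 0.091, -0.33 to 0.40 and -0.41 to 0.26. Id1 ranged from 0.22 to 0.44, Id3 from -0.75 to -0.10, Skil from 0.10 to 0.49, Smad6 from 0.019 to 0.35 and Tgfbi from -0.56 to -0.061. The median difference of the members was -0.060, became 0.049 over the 7 members above background on all 4 arrays, where Bambi and Pmepa1 dropped out, and ranged from -0.084 to 0.074 when 1 array was left out. The 4 genes changed over all genes became 0 with an offset of 16, median scaling, the authors' processed values or probes above background on all 4 arrays, 1 with those above background on at least 2, 2 with the mean of a gene's probes and 10 with robust trended moderation, and 3 to 12 without 1 array. Where 1 array is left in a group, its spread is taken from the other group.

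The same replicate numbers occur in both groups, and same-numbered arrays deviated together (correlation 0.52 across 9779 probes, which are not independent), but nothing in the labels ties a number to a culture or day. With the replicate number as a block in the limma fit, 37 genes passed over all genes, 1 of them among the pathway genes (Grem1, adjusted p = 0.024), where 0 passed without it. Among the members 0 passed with the block, and 1 of 9, Id3, had an unadjusted limma p under 0.05 (0.030, adjusted p = 0.558), against 7.84% of all genes in that fit. The cause of these changes was not tested. Signals near background limit what can be said of Id2, Id4, Pmepa1 and Bambi.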
